A study of Mus musculus with 20 samples.

Results

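Immortalized and primary mouse embryo fibroblasts (iMEFs and MEFs) were compared on 12 of the 20 arrays of this series, 6 from each cell type. The arrays were those harvested 48, 72 and 96 h after 4-HT (pHT), and each iMEF array was paired with the MEF array of the same genotype and time, which gives 6 pairs. Every line carried ER-Cre, a Cre recombinase activated by 4-hydroxytamoxifen, and each of these 12 cultures had received 50 nM 4-HT for 4 h. The 4 lines were iMEF Ubf fl/fl, iMEF Ubf wt/wt, MEF Ubf fl/fl and MEF Ubf wt/wt, where the floxed allele is cut by Cre and the wild-type allele is not. The MEFs came from E14.5 embryos, and the iMEFs were MEFs transfected with the SV40 T antigens. Each combination of line and time was measured on 1 array, so the error below is the scatter between genotypes and times. With 2 lines per cell type, p-values measure that scatter and not the variation between independently derived lines, and a difference between cell types cannot be told apart from one between these particular lines.

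SV40 large T antigen binds p53, the transcription factor that halts cycling of stressed cells, and the retinoblastoma proteins, which keep E2F factors from switching on the genes of DNA replication. Primary fibroblasts hold both brakes, divide for a limited time in culture and secrete collagens, proteoglycans and matrix proteases. They are prepared from whole embryo tissue and so can contain other cell types. UBF, encoded by Ubtf, is a factor of RNA polymerase I (RPI), which transcribes the ribosomal RNA genes.

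Levels are log2 values on the array scale, and differences are iMEF minus MEF on that log2 scale, so that a difference of 1 is 2-fold. A gene was called when its adjusted p in limma's paired test lay under 0.05. Of 15272 genes tested, 5875 were higher in iMEFs (38.5% of all) and 5096 were higher in MEFs (33.4%). With a difference of at least 2-fold in addition, 994 were higher in iMEFs (6.51%) and 2549 in MEFs (16.7%). Calls were thus common, and a list is read below against these shares and against the median difference of all genes, which was 0.12. For 3587 of the 15272 genes every iMEF array lay above every MEF array, and for 3868 every MEF array lay above every iMEF array. Ranges that did not overlap were thus common too, and do not set a gene apart from the rest. Fitted on the mean of each line, 2 lines against 2, the test called 5654 genes higher and 4836 lower in iMEFs. The pair of fl/fl arrays at 96 h stood apart: its differences correlated with those of the other pairs at a median r of 0.77 across genes, against 0.86 to 0.91 for the rest. Without it, 6236 genes were higher in iMEFs and 5084 in MEFs. Ubtf itself lay between 9.49 and 10.42 on the iMEF arrays and between 10.22 and 10.65 on the MEF arrays, a difference of -0.33 ± 0.12 (SE, n = 6 pairs, limma adjusted p = 0.030). Its level on the fl/fl arrays was not below that of the wt/wt arrays at any of the 3 times in either cell type. Whether its probe set covers the deleted exons is not given in the sources used here, so the value does not check the deletion.

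Genes of DNA replication were higher in iMEFs. Of 63 measured genes for replication and nucleotide synthesis, 50 were higher in iMEFs, 42 of them at least 2-fold, and 4 were higher in MEFs, with a median difference of 1.43. Mcm5, a subunit of the helicase that unwinds DNA at the fork, lay at 11.91, 12.05 and 11.72 in fl/fl iMEFs and at 11.78, 11.87 and 11.90 in wt/wt iMEFs at 48, 72 and 96 h. The same times gave 8.73, 7.57 and 7.63 in fl/fl MEFs and 9.07, 8.32 and 8.35 in wt/wt MEFs. No MEF array reached the lowest iMEF array, and the iMEF values stayed within a narrow band while the MEF values spread. Mcm5 was 12.1-fold higher in iMEFs (difference 3.59 ± 0.20, SE, n = 6 pairs, limma adjusted p = 4.6e-07). Cdt1, which loads that helicase on to origins, lay at 11.64, 11.82 and 11.99 (lowest, median and highest) in iMEFs and at 8.19, 8.43 and 8.90 in MEFs. Tk1, the thymidine kinase of S phase, differed by 2.93, Cdc45, another part of the fork helicase, by 2.68, Mcm2 by 2.66 and Pcna, the sliding clamp, by 0.76. The 4 genes higher in MEFs were Orc2 (-1.25), Rfc1 (-0.93), Ctps (-0.73) and Rnaseh2b (-0.60), an origin recognition subunit, a clamp loader subunit, CTP synthase and a subunit of ribonuclease H2. The subunits of a complex did not move as 1 unit: Rfc1 was lower in iMEFs whereas Rfc2, Rfc3, Rfc4 and Rfc5 were higher by 1.69, 1.68, 1.07 and 2.57.

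Histone genes made up 8 of the 15 genes named for the largest difference towards iMEFs. Of 28 measured replication-dependent and linker histone genes, 24 were higher in iMEFs, 20 of them at least 2-fold, with a median difference of 2.14. H2bc3 lay at 12.05, 12.46 and 12.92 (lowest, median and highest) in iMEFs and at 6.66, 7.86 and 8.64 in MEFs. It was 26.1-fold higher in iMEFs (difference 4.71 ± 0.32, SE, n = 6 pairs, limma adjusted p = 1.4e-06). H2ac4 differed by 4.69, the linker histone gene H1f1 by 3.77, H4c6 by 3.61 and H1f5 by 3.54, and for each of these 4 the ranges of the cell types did not overlap. H2bc4 (-1.65) and H1f2 (-0.71) were higher in MEFs. Histone genes of a class are nearly identical in sequence, so that probes can be shared between them and single genes are uncertain.

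The genes of mitosis followed with a median difference of 1.15 over 69 genes, of which 55 were higher in iMEFs, 40 at least 2-fold, and 1, the kinetochore gene Spc25, was higher in MEFs (-0.49 ± 0.20, limma adjusted p = 0.049). Plk1, a kinase that drives entry into mitosis, lay at 11.90, 11.71 and 11.28 in fl/fl iMEFs and at 11.88, 11.86 and 11.68 in wt/wt iMEFs at 48, 72 and 96 h. In MEFs it lay at 9.14, 7.69 and 6.96 in fl/fl cells and at 9.65, 8.98 and 8.86 in wt/wt cells. All MEF arrays lay below all iMEF arrays, and the lowest level was that of fl/fl MEFs at 96 h. The difference was 3.17 ± 0.25 (SE, n = 6 pairs, limma adjusted p = 3.6e-06). Aurkb, the kinase of the chromosomal passenger complex, differed by 3.15, its partner Cdca8 by 2.92, and the transcription factors Mybl2 and Foxm1, which drive the mitotic genes, by 3.13 and 2.72. The proliferation marker Mki67 differed by 1.13 ± 0.29, and Smc4, Smc2, Hmmr and Kif18a did not pass the test (-0.64, -0.20, -0.17 and 0.02), the last of them at background on all 12 arrays.

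**Figure D1:**
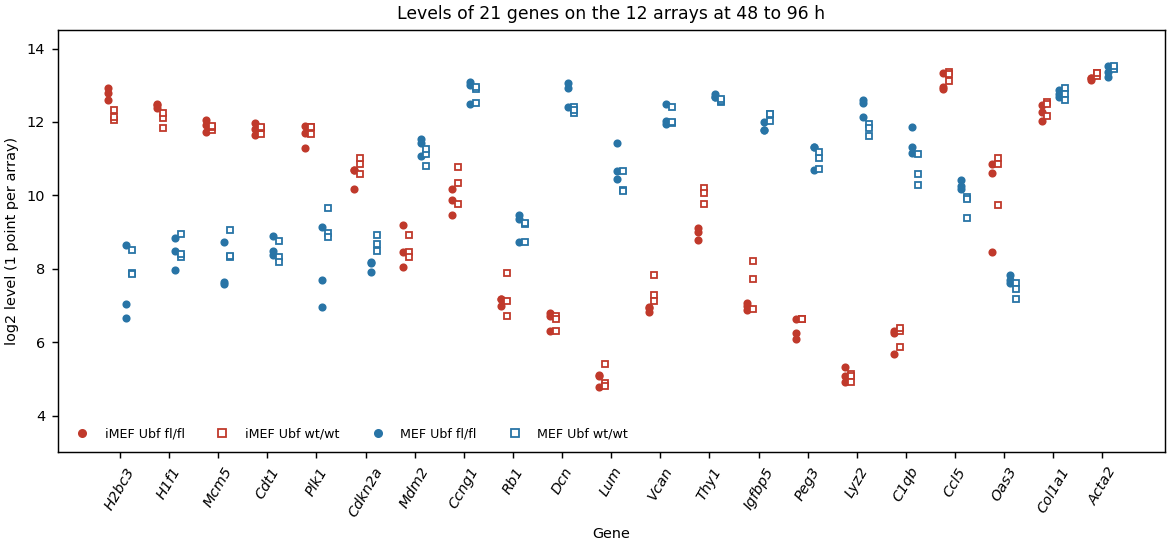
Level of 21 genes on each of the 12 arrays at 48 to 96 h pHT, on the log2 scale, with iMEFs in red, MEFs in blue, filled circles for Ubf fl/fl and open squares for Ubf wt/wt lines. The histone, replication and mitosis genes at the left lay higher on all 6 iMEF arrays (Mcm5 from 11.72 to 12.05 against 7.57 to 9.07), the matrix and macrophage genes lay higher on all 6 MEF arrays, and Acta2 differed little (-0.18).

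Promoter sequence was set beside these lists because E2F factors and the mitotic regulators act through short DNA elements. The 200 bases before the first listed start of each gene were searched on both strands in the RefSeq promoters of mouse build GRCm38.p6, which gave a promoter for 12042 of the 15272 genes. The E2F motif (TTTCCCGC or TTTGGCGC) stood in 7 of 53 replication promoters (13.2%) and in 1.97% of all promoters. The CHR motif (TTTGAA), the cell cycle homology region of mitotic genes, stood in 20 of 57 mitosis promoters (35.1%) and in 7.76% of all. It stood in 7 of 25 histone promoters too (28.0%). The CHR share was 11.8% for p53 target, 9.43% for replication and 6.67% for ribosome biogenesis promoters. The CCAAT box (CCAAT) stood in 64.9% of mitosis, 54.7% of replication and 76.0% of histone promoters, against 31.3% of all. For the histone promoters the E2F share was 0.0%, with 0 of 25. Among lists lower in iMEFs, p53 target promoters held the CCAAT box in 50.0% and the E2F motif in 5.88%, against 5.26% for E2F in mitosis promoters, and ribosome biogenesis promoters held the CCAAT box in 34.7%. A match is a run of letters and was not tested for binding. The 150 bases before the start are shown for the 3 genes with the largest difference in each list that hold the motif, 5′ to 3′ along the gene, with the motif or its reverse complement in capitals. The E2F matches were those of Mcm5, at chr8:75109359-75109508 on the + strand, Mcm6, at chr1:128359706-128359855 on the - strand, and Cdc6, which licenses origins, at chr11:98908001-98908150 on the + strand.
Mcm5: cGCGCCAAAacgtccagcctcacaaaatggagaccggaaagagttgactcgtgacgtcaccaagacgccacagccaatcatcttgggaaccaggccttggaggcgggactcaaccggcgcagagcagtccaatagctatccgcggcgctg
Mcm6: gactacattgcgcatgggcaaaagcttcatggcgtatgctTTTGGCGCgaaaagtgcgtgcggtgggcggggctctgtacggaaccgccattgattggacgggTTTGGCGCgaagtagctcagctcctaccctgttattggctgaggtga
Cdc6: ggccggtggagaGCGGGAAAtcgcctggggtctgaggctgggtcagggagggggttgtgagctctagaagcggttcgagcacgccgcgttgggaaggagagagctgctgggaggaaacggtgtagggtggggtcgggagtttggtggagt
The CHR matches were those of Cdca5, a cohesin regulator, at chr19:6084947-6085096 on the + strand, Cdc20, an activator of the anaphase-promoting complex, at chr4:118437344-118437493 on the - strand, and Kif2c, a kinesin that shortens microtubules, at chr4:117178773-117178922 on the - strand.
Cdca5: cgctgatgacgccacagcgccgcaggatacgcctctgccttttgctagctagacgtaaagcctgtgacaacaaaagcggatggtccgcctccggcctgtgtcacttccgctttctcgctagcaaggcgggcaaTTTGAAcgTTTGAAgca
Cdc20: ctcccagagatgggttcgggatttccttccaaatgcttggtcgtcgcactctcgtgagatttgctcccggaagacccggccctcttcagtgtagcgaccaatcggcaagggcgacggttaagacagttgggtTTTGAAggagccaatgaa
Kif2c: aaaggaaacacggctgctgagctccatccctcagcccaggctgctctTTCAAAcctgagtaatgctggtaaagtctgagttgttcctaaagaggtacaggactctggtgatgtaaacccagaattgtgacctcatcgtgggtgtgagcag
The differences of these 6 genes were 3.59, 2.40 and 1.93 for Mcm5, Mcm6 and Cdc6 and 2.82, 2.70 and 2.70 for Cdca5, Cdc20 and Kif2c.

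Among the regulators of G1, 16 of 31 measured genes were higher in iMEFs and 10 higher in MEFs, with a median difference of 0.51. The E2F genes themselves were split. E2f1, E2f7 and E2f8, which are E2F targets as well, were higher in iMEFs by 1.41, 1.83 and 1.78, and E2f3, E2f5 and E2f6 were higher in MEFs (-0.50, -0.96 and -1.31). Rb1, the retinoblastoma gene, lay at 6.72, 7.15 and 7.89 (lowest, median and highest) in iMEFs and at 8.73, 9.23 and 9.48 in MEFs, a difference of -1.95 ± 0.21 (SE, n = 6 pairs, limma adjusted p = 2.0e-05). Its relative Rbl2 was lower in iMEFs as well (-1.14), whereas Rbl1 was higher (0.73). The D-type cyclin genes Ccnd1 and Ccnd2 were lower in iMEFs (-1.18 and -1.69), Cdk2 and Ccne2 were higher (1.22 and 1.04), and Ccne1 did not pass the test (0.37 ± 0.18, adjusted p = 0.085). Cdkn2a, the locus of the inhibitors p16 and p19ARF, was the G1 gene with the largest difference, 4.87-fold higher in iMEFs, with levels of 10.18 to 11.03 against 7.92 to 8.93 and no overlap. Its neighbour Cdkn2b differed by -0.34.

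Most target genes of p53 were lower in iMEFs. Of 41 measured targets, 30 were higher in MEFs, 17 of them at least 2-fold, and 4 were higher in iMEFs, with a median difference of -0.96. Mdm2, whose product marks p53 for destruction, lay at 8.45, 8.05 and 9.20 in fl/fl iMEFs and at 8.91, 8.46 and 8.32 in wt/wt iMEFs, against 11.44, 11.54 and 11.08 in fl/fl MEFs and 10.80, 11.11 and 11.26 in wt/wt MEFs. The arrays of the cell types did not overlap, and Mdm2 was 6.23-fold higher in MEFs (difference -2.64 ± 0.21, limma adjusted p = 3.5e-06). Ccng1 (-2.76), Trp53inp1 (-2.72), the death receptor genes Eda2r (-2.66) and Fas (-1.97), and the RNA-binding protein gene Zmat3 (-1.99) moved the same way. The proapoptotic target Bbc3 did not pass the test (0.20). The 4 genes higher in iMEFs were Cdkn2a (2.28), which p53 represses, Tap1 (1.37), a transporter of antigen peptides, Plk3 (0.87) and Pltp (0.34). Cdkn1a and Trp53 have no value here, since neither had a probe set with that symbol alone among the genes kept.

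The excess of cycle genes in iMEFs was larger at 48 to 96 h than at 0 and 24 h, and this was tested as late minus early on all 20 arrays. The test called 276 genes with a difference that moved towards iMEFs (1.81% of all genes) and 77 that moved towards MEFs (0.504%). In wt/wt pairs alone the counts were 92 and 2, and the 77 became 354 without the wt/wt pair at 48 h and 449 without 48 h. Of the 276, 111 belonged to the lists of mitosis, replication or histone genes. The median difference of the mitosis genes was -0.15 at 0 and 24 h and 1.15 afterwards, and 64 of 69 were called. For the replication genes it was 0.47 and then 1.43, with 33 of 63 called, and for the histone genes 1.23 and then 2.14, with 14 of 28 called. The 63 replication and 28 histone genes were thus on median higher in iMEFs at the early times already. The change lay mostly in the MEFs: the median mitosis level in fl/fl MEFs was 9.30, 9.38, 7.57, 6.58 and 6.29 at 0, 24, 48, 72 and 96 h, and in wt/wt MEFs 8.98, 9.05, 7.60, 7.42 and 7.28. In fl/fl iMEFs it was 9.14, 9.76, 8.99, 8.56 and 8.83, and in wt/wt iMEFs 8.61, 8.62, 9.04, 8.75 and 8.48. The drop between 24 and 48 h thus occurred in both genotypes of MEFs. In the fl/fl cells of the paper, 0 h precedes recombination of Ubf, and excision was complete by 24 h. UBF protein was reduced at 24 h and nearly gone by 48 h. In fl/fl pairs late minus early thus also spans the loss of UBF, which the wt/wt allele does not undergo. The part of UBF loss, and that of the Cre-activating treatment in either genotype, was not tested. The p53 targets had a median difference of -0.63 early and -0.96 late, and 5 of 41 were called as moving towards MEFs. The single genes with the largest late minus early differences were H2ac4, H2bc3 (2.97), Plk1 (2.63), Aurkb (2.51), the cyclin gene Ccnb2 (2.47) and Prr11 (2.46) towards iMEFs. Towards MEFs they were the protease gene Mmp13 (-2.80), Saa3 (-2.77), an acute-phase protein, and the chemokine genes Ccl8 (-2.63) and Ccl11 (-2.63).

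**Figure D2:**
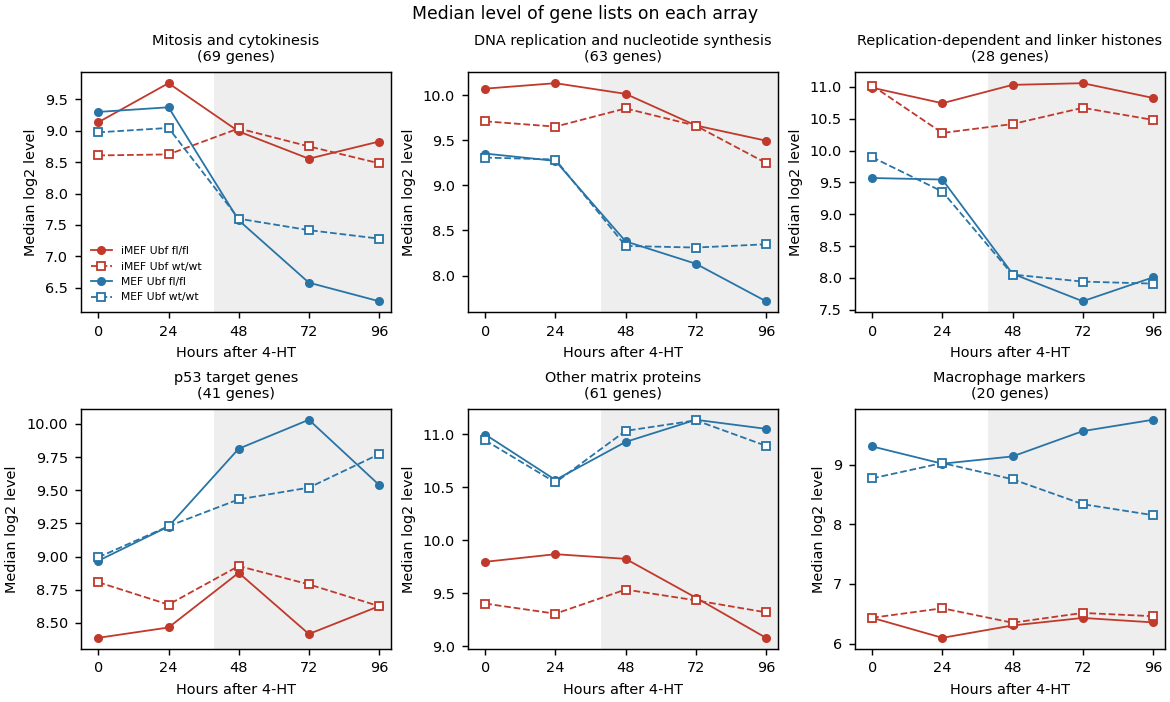
Median log2 level of 6 gene lists on each of the 20 arrays against hours after 4-HT, with iMEFs in red, MEFs in blue, solid lines for Ubf fl/fl and dashed lines for Ubf wt/wt; the shaded times are those compared in the text. The mitosis median of MEFs dropped between 24 and 48 h in both genotypes (9.38 to 7.57 and 9.05 to 7.60), whereas the macrophage and matrix medians were apart at all 5 times.

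**Figure D3:**
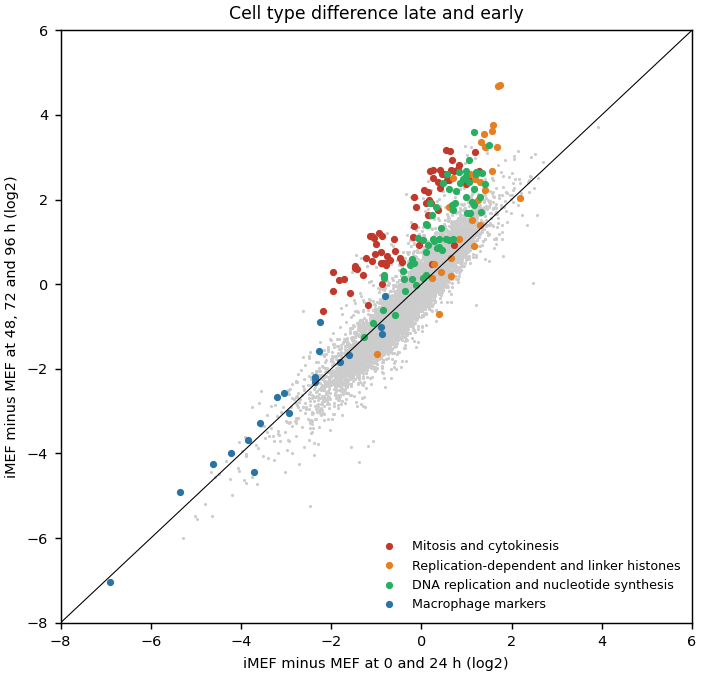
Difference between iMEFs and MEFs for each of 15272 genes at 48 to 96 h (vertical axis) against 0 and 24 h (horizontal axis), both on the log2 scale, with 4 lists in colour and the line of equal difference. Mitosis genes lie above the line (medians 1.15 and -0.15), and the macrophage markers lie along it (medians -2.44 and -2.66).

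Genes of homologous recombination and the Fanconi pathway, which repair broken and crosslinked DNA, had a median difference of 0.83 over 40 genes, with 26 higher in iMEFs and 5 higher in MEFs. Rad54l and Fanca led with 2.27 and 2.09. Those higher in MEFs were Rad50 (-1.54), the kinase genes Atr (-1.24) and Atm (-0.79), Usp1 (-0.47) and Fancb (-0.42).

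The matrix genes were lower in iMEFs, with the proteoglycan genes furthest apart. Of 61 matrix proteins other than collagens, 39 were higher in MEFs, 30 at least 2-fold, and 8 were higher in iMEFs, with a median difference of -0.96. Dcn, which encodes the small proteoglycan decorin, lay at 6.72, 6.79 and 6.30 in fl/fl iMEFs, at 6.72, 6.62 and 6.30 in wt/wt iMEFs, at 12.40, 13.07 and 12.93 in fl/fl MEFs and at 12.25, 12.40 and 12.33 in wt/wt MEFs. The gap between the groups was several times the spread within either, and Dcn was 63.4-fold higher in MEFs (difference -5.99 ± 0.15, SE, n = 6 pairs, limma adjusted p = 7.1e-09). Its relatives Lum (-5.56) and Aspn (-4.45), the large proteoglycan gene Vcan (-4.98) and Postn, the gene of periostin (-4.17), followed, and Lama5, a laminin chain of basement membranes, was higher in iMEFs (1.64). Lum on all 6 iMEF arrays and Dcn on 2 of them did not pass the 40th percentile, under which a level was not told from background, so these differences are limited by that floor. Set at the percentile on the iMEF arrays, Lum was at least 18.9-fold higher in MEFs. In all, 22 named genes were at background on every array of 1 cell type, and for those the differences printed here are measured values that depend on the floor. Among those given below without a bound are Ccl3, Chordc1, Clec4n, Cyp4a12b and Lpl, at background in iMEFs, and Tbx20, at background in MEFs.

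The collagen genes did not shift as a group: 17 of 44 were higher in each cell type, with a median of 0.13, and that median was -0.19 among genes over the 60th percentile. Of those at least 2-fold apart, 6 were higher in MEFs and 0 in iMEFs, led by Col12a1 (-3.91), Col6a3 (-2.54) and Col3a1 (-2.17). The main fibrillar gene Col1a1 differed by -0.44 ± 0.10 (SE, limma adjusted p = 0.0031), with 12.03 to 12.54 in iMEFs and 12.60 to 12.93 in MEFs. Of 40 matrix proteases and inhibitors, 30 were higher in MEFs and 2 in iMEFs, with a median of -0.98. The stromelysin and collagenase genes Mmp3 (-4.26) and Mmp13 were furthest apart, and Plaur (0.50) and Mmp24 (0.38) were those higher in iMEFs. Among 39 contractile and smooth muscle genes, 9 were higher in iMEFs and 18 in MEFs (median -0.23), and Acta2, the smooth muscle actin of activated fibroblasts, did not pass the test (-0.18 ± 0.10, adjusted p = 0.12). Adhesion receptors had a median of -0.91 over 47 genes, with 29 higher in MEFs and 10 in iMEFs. Thy1 (-3.15) and Cdh11 (-2.94), surface proteins of fibroblasts, stood against the integrin gene Itga3 (2.50).

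The fibroblast label was checked against 20 markers fixed for it. On every MEF array all 20 were over the 40th percentile, and on the iMEF arrays 17 or 18 were. In all, 18 of 20 were higher in MEFs (median -1.06) and 0 in iMEFs. Vim and Twist1 did not pass the test (-0.18 and -0.08), and Pdgfra, the PDGF receptor of mesenchymal cells, lay at 7.48 to 9.45 in iMEFs and 11.08 to 11.79 in MEFs.

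Macrophage genes were among those furthest apart, and nearly the whole marker list was higher in MEFs. Of 20 markers measured, 19 were higher in MEFs, 18 of them at least 2-fold, with a median of -2.44, and Cx3cr1 did not pass the test (-0.29). Lyz2, the lysozyme gene of myeloid cells, lay at 4.92, 5.32 and 5.07 in fl/fl iMEFs, at 5.12, 5.09 and 4.92 in wt/wt iMEFs, at 12.13, 12.52 and 12.59 in fl/fl MEFs and at 11.94, 11.85 and 11.61 in wt/wt MEFs. None of the iMEF values passed the 40th percentile, so the measured difference (-7.03 ± 0.13, limma adjusted p = 9.2e-10) rests on a floor, and with the iMEF arrays set at the percentile Lyz2 was at least 54.8-fold higher in MEFs. C1qb, a complement subunit made by macrophages, differed by -4.92, and the complement receptor gene C3ar1, at background on every iMEF array, was at least 18.8-fold higher in MEFs. The macrophage surface gene Adgre1 was at background on every iMEF array too. The median level of the list lay between 6.30 and 6.51 on the iMEF arrays and between 8.16 and 9.76 on the MEF arrays, and 9 to 14 against 19 to 20 of the 20 markers were over the 40th percentile. Its difference was -2.66 at 0 and 24 h, so it was present before the late times. In bulk RNA, fewer cells of a type and less RNA per cell cannot be told apart. The part of such cells in the lower levels of lysosomal, chemokine and protease genes in iMEFs was not tested.

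**Figure D4:**
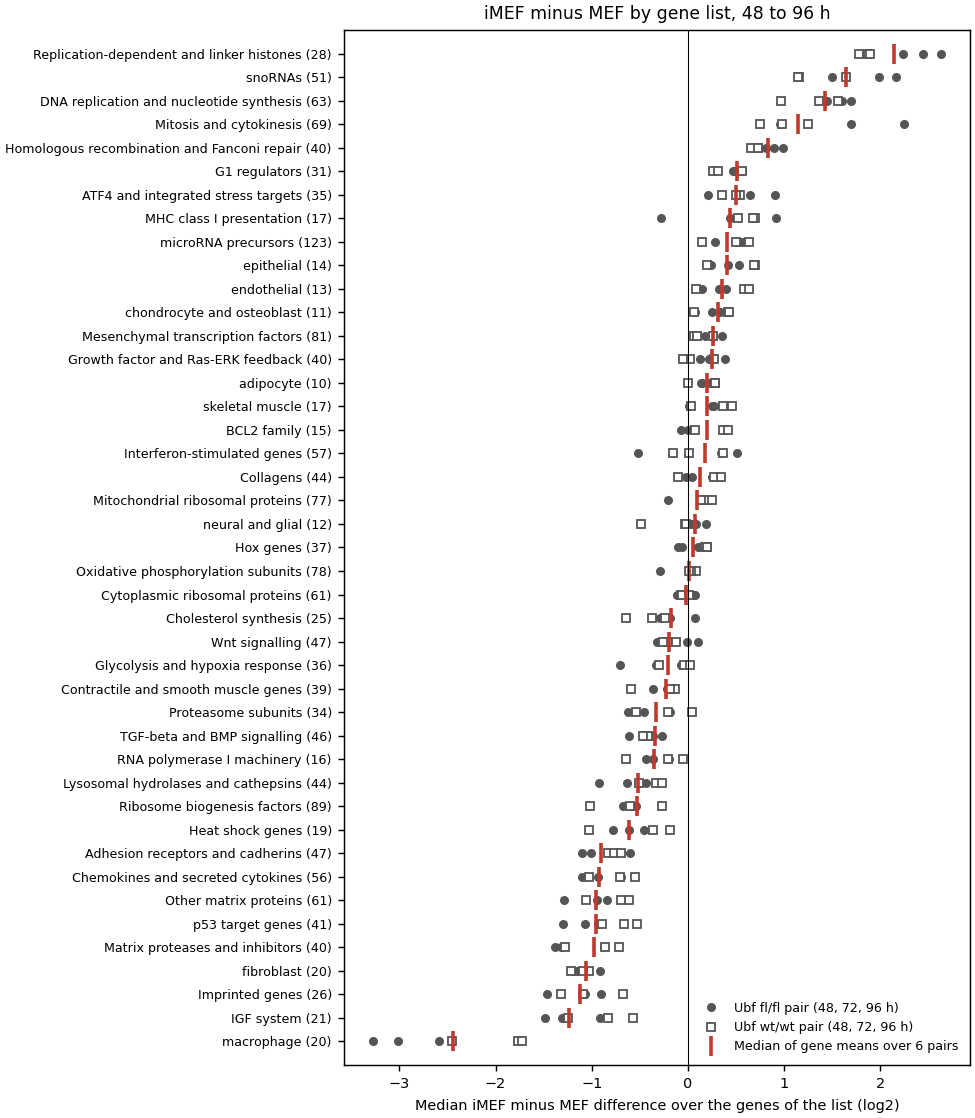
Median difference between iMEFs and MEFs (log2) over the genes of each list, 1 row per list with its number of genes, for the 3 Ubf fl/fl pairs (filled circles), the 3 Ubf wt/wt pairs (open squares) and the median over genes of the mean of the 6 pairs (red bar); the 4 sex-linked markers are not drawn. Histones (2.14) and macrophage markers (-2.44) lie at the ends, with all 6 pairs on the same side of 0.

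Marker lists of other cell types lay nearer to the median of all genes than the macrophage list. Of 14 epithelial markers, 11 were higher in iMEFs and 0 in MEFs with a median of 0.41, led by the keratin genes Krt19 (1.70) and Krt18 (0.88). Endothelial markers had a median of 0.35 over 13 genes (8 higher in iMEFs, 3 in MEFs), although Flt1, a VEGF receptor, was higher in MEFs (-2.80). The medians were 0.20 over 17 skeletal muscle markers (6 higher in iMEFs, 0 in MEFs), 0.07 over 12 neural and glial markers (4 and 4), 0.31 over 11 chondrocyte and osteoblast markers (7 and 2) and 0.20 over 10 adipocyte markers (5 and 3). Lpl, the lipoprotein lipase gene, was the adipocyte marker furthest apart (-3.99).

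Secreted signals were mostly lower in iMEFs. Of 56 chemokines and secreted cytokines, 34 were higher in MEFs and 12 in iMEFs (median -0.92). Ccl3, which macrophages make, differed by -4.48, the growth factor gene Ptn by -4.34 and Ccl8 by -3.82. Ccl5 went the other way, at 12.91, 13.21 and 13.36 (lowest, median and highest) in iMEFs and 9.37, 10.06 and 10.41 in MEFs, 8.89-fold higher in iMEFs. In the IGF system, 14 of 21 genes were higher in MEFs and 4 in iMEFs (median -1.24). Igf2, a fetal growth factor, held within 9.67 to 9.84 on the iMEF arrays and 12.82 to 12.87 on the MEF arrays, a difference of -3.08 ± 0.10 (SE, n = 6 pairs, limma adjusted p = 2.3e-08). The binding protein genes were divided, with Igfbp5 (-4.71) and Igfbp3 (-4.59) higher in MEFs and Igfbp2 (2.15) in iMEFs.

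In TGF-beta and BMP signalling 12 of 46 genes were higher in iMEFs and 24 in MEFs (median -0.34), with the antagonist genes Fst (-2.72) and Grem1 (-1.96) and the receptor gene Tgfbr1 (-2.35) among the latter. In Wnt signalling 13 of 47 were higher in iMEFs and 20 in MEFs (median -0.19, but 0.05 after quantile normalization). The receptor gene Lgr5 (-5.47) and the antagonist gene Sfrp1 (-3.59) stood against the ligand gene Wnt10a (2.16). Growth factor receptors and Ras-ERK feedback genes had a median of 0.25 over 40 genes, with 18 higher in iMEFs and 14 in MEFs. Here the feedback genes Dusp4, Spry1, Spry2 and Spry4 were lower in iMEFs (-1.58, -1.29, -1.33 and -1.14), and the immediate early genes Egr1, Ier2 and Junb higher (1.13, 1.15 and 1.05).

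Imprinted genes, expressed from 1 parental allele, were mostly lower in iMEFs: 17 of 26 were higher in MEFs and 2 in iMEFs, with a median of -1.13. Dcn and Igf2 are on this list too, and the arrays do not measure whether a listed gene is expressed from 1 allele in these cells. Peg3 lay at 6.07 to 6.64 in iMEFs and 10.69 to 11.31 in MEFs, a difference of -4.56, and Mest and Ndn differed by -3.34 and -3.29. Of 37 Hox genes, which set position along the body axis, 13 were higher in iMEFs and 7 in MEFs (median 0.06, but -0.06 among genes over the 60th percentile). Those furthest apart were all higher in MEFs, namely Hoxc8 (-3.03), Hoxc6 (-2.05), Hoxc5 (-1.99) and Hoxd8 (-1.76). Among 81 mesenchymal transcription factors, 39 were higher in iMEFs and 26 in MEFs (median 0.26). Ebf1 (-3.15), Zeb2 (-2.46) and Snai2 (-1.89) were higher in MEFs, whereas Tbx20 (2.22), Runx3 (2.15), Foxf1 (2.10) and Pitx1 (1.94) were higher in iMEFs.

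The genes for making ribosomes were not uniform. Of 89 ribosome biogenesis factors, 55 were higher in MEFs and 14 in iMEFs (median -0.52). The large-subunit GTPase gene Gtpbp4 differed by -2.49, Npm1 by -1.80 and Ncl by -1.48, and Tbl3 (1.29) and Ddx56 (0.95) were higher in iMEFs. In the RPI machinery 9 of 16 genes were higher in MEFs and 3 in iMEFs (median -0.35), with the initiation factor gene Rrn3 at -0.90 and the subunit gene Polr1c at 1.20. Taf1d had a difference of 1.97 on the probe set with the highest level and of -1.02 when a probe set with a RefSeq accession was taken, so no direction is given for it. Cytoplasmic ribosomal protein genes had a median of -0.03 over 61 genes, with 11 higher in iMEFs and 14 in MEFs, and that median was 0.11 after scaling to the median of mRNA probe sets. Mitochondrial ribosomal protein genes had a median of 0.10 over 77 genes (30 higher in iMEFs, 15 in MEFs), close to that of all genes.

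All 51 measured small nucleolar RNAs and their Cajal body relatives, which guide the modification of ribosomal and spliceosomal RNA, were higher in iMEFs, 42 of them at least 2-fold, with a median difference of 1.64. Snora33 lay at 7.98, 9.06 and 9.70 (lowest, median and highest) in iMEFs and at 6.38, 6.44 and 6.63 in MEFs, a difference of 2.47 ± 0.24 (SE, n = 6 pairs, limma adjusted p = 1.4e-05). Snord15b (2.44), Snord15a (2.24) and Scarna13 (2.23), a Cajal body RNA, followed. The median was 1.90 in fl/fl and 1.38 in wt/wt pairs and 0.84 at 0 and 24 h. Of the 51, however, 0 passed the late minus early test and 0 passed the test for dependence on the genotype label. Most of these RNAs lie in introns of other genes and are cut from them, and the arrays do not tell the mature RNA from its host transcript.

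Of 123 microRNA precursors, a list added after values had been seen, 81 were higher in iMEFs and 8 in MEFs, with a median of 0.41. The mature microRNAs of Mir382 and of the 4 precursors with the largest measured differences are printed because they come from a few clusters, with the seed (bases 2 to 8) in capitals, from RefSeq on GRCm38.p6, which held a mature sequence for 111 of the 123. Mir18 and Mir19a lie close together in the Mir17 cluster, at chr14:115043867-115043889 and chr14:115044048-115044070, and Mir15b lies at chr3:69009775-69009796, all on the + strand. Mir377 and Mir382 lie in the imprinted cluster near Meg3, at chr12:109740553-109740574 and chr12:109733781-109733802 on the + strand.
miR-18a-5p: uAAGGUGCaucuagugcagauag
miR-19a-3p: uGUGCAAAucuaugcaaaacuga
miR-15b-5p: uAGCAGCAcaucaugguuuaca
miR-377-3p: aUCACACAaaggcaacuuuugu
miR-382-5p: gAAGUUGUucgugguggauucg
The seed of miR-15b-5p is shared by miR-15a-5p, miR-497a-5p and miR-195a-5p. Their precursors Mir15a and Mir497 differed by 0.95 and 0.55, and Mir195a did not pass the test (-0.03). Mir18 lay at 7.58 to 9.22 in iMEFs and at 5.03 to 5.80 in MEFs (difference 2.97 ± 0.21, SE, n = 6 pairs, limma adjusted p = 1.7e-06). No MEF array passed the 40th percentile for Mir18, Mir19a or Mir15b, so their differences are set by that floor, and with the MEF arrays set at the percentile Mir18 was at least 4.27-fold higher in iMEFs. Mir19a and Mir15b, with measured differences of 2.94 and 2.10, passed it on 3 iMEF arrays. Mir377 did not pass it on any iMEF array and was at least 1.57-fold higher in MEFs. Mir377 differed by -2.31, and Mir382 by -3.02 in fl/fl pairs and -0.14 in wt/wt pairs. The cluster was not uniform: of its 20 precursors with a mature sequence, 7 were higher in iMEFs, led by Mir341 (0.98) and Mir673 (0.77), 5 were higher in MEFs and 8 did not pass the test, with a median of 0.20. These values come from probe sets named for the precursor and do not measure the mature microRNA.

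Immune genes were split by class. Interferon-stimulated genes had a median of 0.18 over 57 genes, with 20 higher in each cell type. By pair that median ran from -0.51 to 0.51, and at 96 h it was -0.51 in fl/fl and -0.16 in wt/wt cells. The oligoadenylate synthetase genes Oas3 (2.69), Oas2 (2.08) and Oas1a (1.40) were higher in iMEFs, whereas Slfn5 (-2.91), Ifit3 (-1.83) and Ifit1 (-1.80) were higher in MEFs. Oas3 was uneven among iMEFs: it lay at 10.60, 10.84 and 8.45 in fl/fl cells at 48, 72 and 96 h and at 11.01, 10.85 and 9.72 in wt/wt cells, against 7.17 to 7.83 over the MEF arrays. The groups did not overlap, and the lowest iMEF value was that of fl/fl cells at 96 h. For MHC class I presentation 10 of 17 genes were higher in iMEFs and 3 in MEFs (median 0.44). The immunoproteasome genes Psmb9 (1.86) and Psmb8 (1.70) and the chaperone gene Pdia3 (-1.79) stood at the ends. The list median was -0.28 in the fl/fl pair at 96 h and 0.44 to 0.92 in the other pairs.

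Lists of general cell functions differed in direction. Of 44 lysosomal hydrolases and cathepsins, 28 were higher in MEFs and 7 in iMEFs (median -0.52), led by Ctsk (-4.71) and Ctss (-2.28). Heat shock genes had a median of -0.61 over 19 genes (11 higher in MEFs, 2 in iMEFs), with Chordc1 (-2.84) and Hsp90aa1 (-2.24) furthest apart, and proteasome subunits -0.33 over 34 genes (17 and 5). For glycolysis and the hypoxia response 15 of 36 genes were higher in MEFs and 4 in iMEFs (median -0.20), and Hif1a, the oxygen-regulated factor, differed by -3.40. Cholesterol synthesis had a median of -0.18 over 25 genes (12 higher in MEFs, 9 in iMEFs). Oxidative phosphorylation subunits had a median of 0.01 over 78 genes (24 and 22), with Uqcrb at -2.09 and Ndufb8 at 1.26. Targets of ATF4, the factor of amino acid stress, were higher in iMEFs for 21 of 35 genes and in MEFs for 6 (median 0.50), with Pck2 (1.69), Chac1 (1.59) and Shmt2 (1.57) in front. In the BCL2 family 7 of 15 were higher in iMEFs and 6 in MEFs (median 0.20), the pro-death gene Bok by 1.49 and the survival gene Mcl1 by -1.44.

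Gene length and level moved with the difference. Sorted by the length of the gene on the genome, the median difference was 0.33, 0.25, 0.10, -0.16 and -0.35 from the shortest to the longest of 5 bins of 3051 to 3054 genes each. In the shortest bin 54.8% of genes were higher in iMEFs and 13.4% in MEFs, and in the longest 22.6% and 51.2%. The median length was 91 bases for the small nucleolar RNAs, 513.5 for the histone genes and 114410 for the collagen genes, and 20126 for the replication and 29534 for the mitosis genes. Level moved with the difference too: from the lowest to the highest of 5 bins by mean level the median was 0.26, 0.22, -0.09, -0.14 and -0.05, and 47.6% of genes were higher in iMEFs in the lowest bin against 31.1% in the highest. The epithelial markers, with list medians between 6.59 and 7.42 over the 12 arrays, and the microRNA precursors, between 6.78 and 7.40, were lists of low level. So were the skeletal muscle (6.60 to 7.22), endothelial (6.79 to 7.28) and chondrocyte and osteoblast markers (6.87 to 7.30). The neural markers (6.96 to 7.27) and adipocyte markers (6.86 to 7.69) were low as well. The part of gene length and of level in the list medians was not tested.

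Few genes passed the test for a cell type difference that depended on the genotype label. That test had a larger median standard error than the main test (0.257 against 0.128), so few calls do not show that the genotypes were alike. List medians could differ without a member called, at 1.72 in fl/fl and 0.86 in wt/wt pairs for mitosis genes. They were -3.03 and -1.99 for macrophage markers and -1.18 and -0.71 for p53 targets, but -0.55 and -0.56 for ribosome biogenesis factors. Tested as fl/fl minus wt/wt, 27 genes were higher (0.177% of all) and 85 lower (0.557%). The counts were 1 and 1 without 48 h, and 6 to 32 and 12 to 91 with any 1 pair left out. Of these 112 genes, 47 had differences of opposite sign in the genotypes. Those furthest apart were AI506816 (4.07 ± 0.37, SE, adjusted p = 0.0011), Sbspon (3.64 ± 0.29), Ifi202b (3.59 ± 0.25), Serinc2 (-3.15 ± 0.27), Slc14a1 (3.06 ± 0.24), Cthrc1 (-2.99 ± 0.27), Mir382 (-2.88 ± 0.27), Ndn (-2.81 ± 0.40), Eif2s3y (-2.79 ± 0.32) and Clec4n (-2.74 ± 0.35). AI506816 lay at 5.82 to 6.73 in fl/fl MEFs and at 9.55 to 11.57 in the other 3 lines. Sbspon lay at 9.92 to 11.04 in fl/fl iMEFs and at no more than 9.41 in the others. Ifi202b, an interferon-inducible gene, lay at 7.35 to 8.12 in wt/wt MEFs and at no more than 5.08, under the 40th percentile, in the others, so the size of its interaction depends on that floor. Eif2s3y, Mir382 and Clec4n were under the percentile on some arrays too, and the sizes of their interactions depend on it as well.

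Differences of this kind separate single lines, and genotype and line cannot be told apart. In fl/fl iMEFs, Ndn lay at 7.87, 7.05 and 6.65 and Cthrc1 at 7.62, 7.23 and 7.54 at 48, 72 and 96 h, below the wt/wt iMEFs at 10.17, 10.04 and 9.24 and at 10.86, 10.53 and 10.25. Mir382 was at 4.43 to 5.06 in fl/fl iMEFs and at 7.47 to 7.97 on all other arrays, and Mir300 and Mir134 of the same cluster passed the test as well (-1.66 and -1.40). Among the Hox genes, Hoxb9 (-2.52), Hoxc10, Hoxc9 (-1.87) and Hoxc6 (-1.58) passed in the same direction. Eif2s3y, a gene of the Y chromosome, lay at 7.03, 7.46 and 5.89 in fl/fl MEFs and at 3.70 to 4.80 on the other 9 arrays. Uty, also Y-linked, lay at 7.22, 7.51 and 5.89 in fl/fl MEFs and at 4.17 to 5.82 elsewhere. Xist, the RNA that silences an X chromosome in female cells, lay at 8.17 to 9.38 in iMEFs and 9.06 to 10.88 in MEFs (-1.40 ± 0.27, SE, limma adjusted p = 0.0011). Of the 4 sex-linked markers, 1 was higher in MEFs and 0 in iMEFs (median -0.55, and 0.45 in wt/wt pairs). In fl/fl MEFs the level of 5.89 at 96 h was at background for both Y-linked genes, unlike those at 48 and 72 h. The median difference of the 4 markers was -1.64, -2.09 and -0.25 in fl/fl pairs at 48, 72 and 96 h. That pair at 96 h is also the one that stood apart across genes. The Y-linked signal thus differed between lines at 48 and 72 h, and between times within the fl/fl MEF line. The cause, and the part of sex makeup in the other differences, were not tested.

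**Figure D5:**
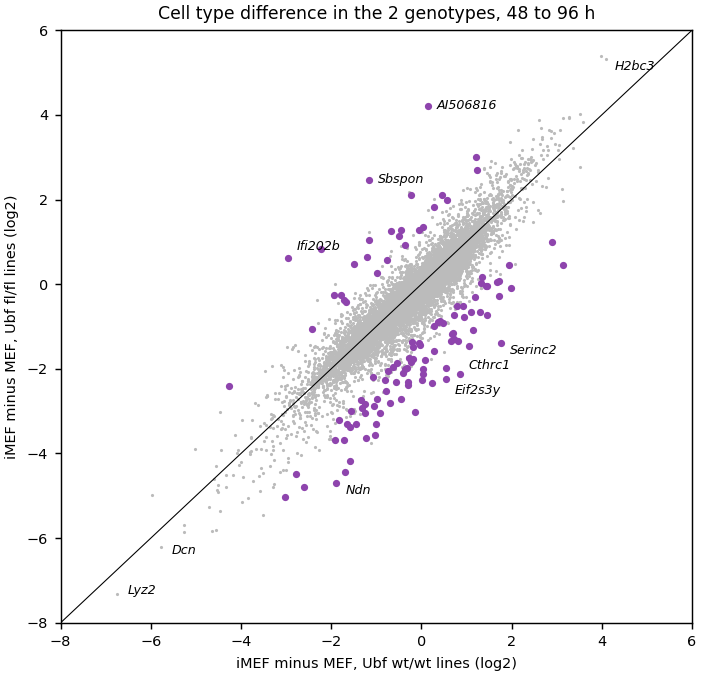
Difference between iMEFs and MEFs for each of 15272 genes in the lines labelled Ubf fl/fl (vertical axis) against those labelled Ubf wt/wt (horizontal axis), both the mean of 3 pairs on the log2 scale, with the 112 genes past the threshold of the interaction in purple and the line of equal difference. Most genes lie near the line, Lyz2 and Dcn far down along it (-7.03 and -5.99 over all pairs), and Sbspon and Ifi202b above it.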

How the data were processed

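RNA from 20 cultures was hybridised to 1 Affymetrix whole-transcript array each, and 12 of these arrays entered the main test. Each deposited value is a log2 level of 1 probe set, which the authors normalized over all 20 arrays by RMA-sketch in Affymetrix Power Tools version 1.14.4 per the labels. Mouse Gene 2.0 ST is the array type in the methods and the annotation given here is that of the 1.0 ST array, so gene names follow that annotation. The paper's subtraction of controls and of time 0 is not in these values. Their precision is limited by the number of arrays.

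Of 35556 probe sets, 21789 carry 1 symbol, 1621 carry several and were left out, and 12146 are not listed. The identifiers of 21698 were found in the RefSeq gene table. The probe set with the highest mean stood for each gene, and a gene was kept when it was over the 40th percentile of the array on at least 2 arrays, which left 15272 genes. Levels under that percentile were not told from background.

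The main test was limma 3.58.1 in R 4.3.3 with the pair of genotype and time as a block (5 residual degrees of freedom, prior 5.31, median standard error 0.128). The interaction of cell type and genotype (4 degrees of freedom, median standard error 0.257) and late minus early on 20 arrays (7 degrees of freedom, 0.180) used the same block. Adjusted p-values are Benjamini-Hochberg over all genes, with a threshold of 0.05, and all are two-sided. The pairs come from the labels of genotype and time, each line being followed over time, and the arrays of a pair did not deviate together (correlations of their deviations from the cell type means from -0.21 to 0.14). The test was checked on simulated data. Python 3.11.15 and matplotlib 3.10.9 made the plots.

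The members and the 43 gene lists were chosen with earlier results of these data known, and no list is independent support for its direction. Genes were named by rule: the 15 with the largest difference each way that passed the test, with 1 sign in all 6 pairs and over the 40th percentile on all 6 arrays of the higher cell type (predicted genes and small RNAs left out), up to 4 per list, 14 by name, and the 10 largest interactions and the 10 largest late minus early differences. Other genes named in a list were chosen after their values were seen. Alternatives were scaling, filters, probe set choice, the block, empirical Bayes settings and leaving out pairs, times or a genotype.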

Additional observations from a re-analysis of the deposited data

Results flagged for a closer look

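In 112 genes the cell types differed by an amount that depended on the genotype label, by limma's interaction test, and the 10 with the largest estimate are given here. The fl/fl minus wt/wt differences were 4.07 for AI506816, 3.64 for Sbspon, 3.59 for Ifi202b, -3.15 for Serinc2, 3.06 for Slc14a1, -2.99 for Cthrc1, -2.88 for Mir382, -2.81 for Ndn, -2.79 for Eif2s3y and -2.74 for Clec4n. Ifi202b and Eif2s3y were at background in 3 of the 4 lines, Mir382 in fl/fl iMEFs and Clec4n on every iMEF array. The sizes of these differences depend on that floor. In fl/fl pairs AI506816 differed by 4.21 and in wt/wt pairs by 0.15, and for Ndn the values were -4.70 and -1.89. Serinc2 was lower in iMEFs in fl/fl pairs (-1.39) and higher in wt/wt pairs (1.76).

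In 6 of 87 sets of 6 pair differences that were examined, 1 pair lay far from the others, its gap to the nearest pair divided by the whole range exceeding 0.625. Chance flags about 1 in 20 sets. For the mitochondrial ribosomal proteins (ratio 0.748) the fl/fl pair at 96 h had a median of -0.21 with the others between 0.13 and 0.25. For the oxidative phosphorylation subunits (0.820) the same pair, which stood apart across genes as well, was at -0.29 with the others between 0.01 and 0.08. For the neural and glial markers (0.669) the wt/wt pair at 96 h was at -0.48 with the others between -0.03 and 0.19. Among genes, Cyp4a12b (0.672) had 1 pair at -5.43 with the others from -4.67 to -4.30, Ccnd1 (0.669) had 1 pair at -2.36 with the others from -1.22 to -0.66, and Col1a1 (0.634) had 1 pair at -0.72 with the others from -0.44 to -0.27.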

How the results depend on the processing

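Direction and call were kept by 4311 of the 4371 values computed for 212 named genes under 22 other settings. Of the rest, 52 lost the call, 7 gained one, and 1 reversed: Taf1d, at -1.02 when probe sets with a RefSeq accession came first. Most of these genes were named because they passed the test with large differences, which favours keeping direction and call. After quantile normalization 1527 genes were higher in iMEFs at least 2-fold, and the genotype interaction called 16 higher and 42 lower. The 60th percentile filter left 17 higher in the interaction, and trend and robust settings called 137 lower. Without the replicate block, which the labels define, the interaction called 61 higher and 173 lower and late minus early 125 lower, and no other count moved by over 1.5 times. Without 48 h the interaction called 1 and 1 and late minus early 449 lower. Without 72 h the test called 3119 genes higher in iMEFs, the interaction 17 higher, and late minus early 174 higher and 17 lower. Without 96 h the interaction called 13 and 32. The wt/wt pairs alone gave 92 higher and 2 lower in late minus early, the fl/fl pairs alone 3012 genes higher in iMEFs, and 0 h alone as the early time 139 and 21. Leaving out each pair in turn gave 4612 to 6236 genes higher in iMEFs and 4706 to 5123 lower, 883 to 1164 and 2378 to 2794 at least 2-fold, 6 to 32 and 12 to 91 in the interaction, and 228 to 464 and 39 to 354 in late minus early. In the interaction the counts fell to 6 and 31 without fl/fl 72 h, 16 and 44 without fl/fl 96 h, 6 and 12 without wt/wt 48 h, 7 and 30 without wt/wt 72 h and 8 and 38 without wt/wt 96 h. In late minus early they were 464 higher without fl/fl 96 h, 354 lower without wt/wt 48 h, and 39, 40 and 47 lower without fl/fl 72 h, wt/wt 72 h and wt/wt 96 h. Counts of the interaction thus rest on which arrays enter, and the cause was not tested. Scaling to the median of mRNA probe sets moved the median difference of all genes from 0.12 to 0.26, so differences smaller than that shift carry no direction, and the share of calls higher in iMEFs from 53.6% to 61.9%. With the 60th percentile filter that share was 46.3%. List medians changed sign for the cytoplasmic ribosomal proteins (0.13 after quantile normalization), Wnt signalling, collagens, Hox genes, oxidative phosphorylation (-0.06 without 48 h) and the neural markers (-0.04 in wt/wt pairs), and for the 4 sex-linked markers (-0.55, and 0.45 in wt/wt pairs).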
